A study of Mus musculus with 8 samples.

Results

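Teneurins and FLRT proteins are 2 small families of cell-surface adhesion proteins that share a partner, the latrophilins. All 7 mouse genes were followed here, Tenm1, Tenm2, Tenm3 and Tenm4 for the teneurins and Flrt1, Flrt2 and Flrt3 for the FLRT proteins, each found on a single row of the 23827 rows of the deposited count table. They were taken up by their symbols after Tenm1 was seen to be lower and Flrt3 to be somewhat higher in mutant ganglia. The difference between the groups is therefore a description for all 7 genes, and no p-value is given for any of them. RNA came from the superior cervical ganglia of C57Bl6/n mice on postnatal day 1. These ganglia hold sympathetic neurons with glia, vessels and connective tissue. Animals of both groups carried KIF1Bb fl/fl, an allele of the kinesin gene Kif1b flanked by loxP sites. The 4 control animals (labelled WT) were DBHcre -/- and thus carried no Cre, and the 4 conditional knockout animals (cKO) were DBHcre +/-, with Cre under the promoter of dopamine beta-hydroxylase, which noradrenergic cells use. Animals with Cre but without the floxed allele were not analysed here, and ganglion cells outside the noradrenergic lineage keep the intact allele in both groups. Each library was made from polyadenylated RNA of the ganglion pair of 1 animal.

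Teneurins are large single-pass membrane proteins whose extracellular part holds a barrel-shaped module that binds latrophilins. Teneurins can also bind other teneurins across the cleft between cells. FLRT proteins carry leucine-rich repeats outside the cell, bind latrophilins and the netrin receptors of the UNC5 family, and can associate with fibroblast growth factor (FGF) receptors. Contact between these proteins can be adhesive or repulsive. In the nervous system they are best known for matching axons with their targets and for organising synapses.

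Library totals lay between 16214912 and 18114418 counts. Kif1b had 1224 ± 222 CPM (reads of a gene scaled to a common library size by the TMM method; SD, n = 4), counted over all its isoforms, in controls against 260 ± 52.7 CPM (SD, n = 4) in cKO ganglia. The groups did not overlap. Of 14592 genes tested, 397 passed an adjusted p below 0.05 in edgeR's quasi-likelihood test, 234 of them higher in cKO (1.60%) and 163 lower (1.12%), and scaling by library size alone gave 343 higher and 145 lower. Over all tested genes, 2457 had an unadjusted p below 0.05 in edgeR, 1012 passed in DESeq2 and 1539 in limma voom. These totals are the background for the same counts in each list below. Summed markers of several cell types moved with the groups. The 12 neuronal markers summed to between 17690 and 19216 CPM in controls and between 14874 and 16771 CPM in cKO libraries, although 0 of the 12 passed edgeR's test (3 at an unadjusted p below 0.05, 1 in DESeq2, 2 in limma voom). The 8 fibroblast markers summed to 5214 to 6723 CPM in controls and 7252 to 10647 CPM in cKO, the 7 endothelial markers to 142 to 203 and 244 to 261 CPM, and the 5 mural markers to 161 to 172 and 247 to 330 CPM. Of these 3 lists, 5, 3 and 2 genes rose and none fell. The 8 glial markers summed to 789 to 1019 CPM in controls and 1022 to 1189 CPM in cKO, with 0 past the threshold in edgeR, 5 at an unadjusted p below 0.05, and 5 each in DESeq2 and limma voom. No marker list had a gene at 0 in all 8 libraries. In RNA from a whole ganglion, fewer cells of a type and less RNA per cell cannot be told apart. The part of cell makeup in the differences described next was not tested.

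Levels per exon length set the members apart in control ganglia. Tenm3 led the teneurins with 10.3 ± 1.90 CPM per kb of merged exon (SD, n = 4). Tenm2 followed with 5.12 ± 0.955 CPM per kb (SD, n = 4) and Flrt2, the leading FLRT gene, with 5.00 ± 1.13 CPM per kb (SD, n = 4). Every control library had more Tenm3 per kb than any had Tenm2, whereas the ranges of Tenm2 and Flrt2 overlapped. Flrt1 and Flrt3 stood at 2.11 ± 0.629 and 1.81 ± 0.257 CPM per kb (SD, n = 4 each), overlapping each other and both below Flrt2 in every library. Tenm1 and Tenm4 were the lowest, at 0.482 ± 0.105 and 0.408 ± 0.0469 CPM per kb (SD, n = 4 each), again overlapping. Of the summed teneurin level per kb, Tenm3 held 63.1% ± 3.58 (SD, n = 4), Tenm2 31.4% ± 3.21, Tenm1 2.96% ± 0.418 and Tenm4 2.55% ± 0.403 in control ganglia. The latrophilins that both families bind were also present: Lphn1 (now Adgrl1) at 27.0 ± 10.7, Lphn2 (Adgrl2) at 7.20 ± 0.887 and Lphn3 (Adgrl3) at 4.41 ± 0.796 CPM per kb in control ganglia (SD, n = 4 each).

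**Figure D1:**
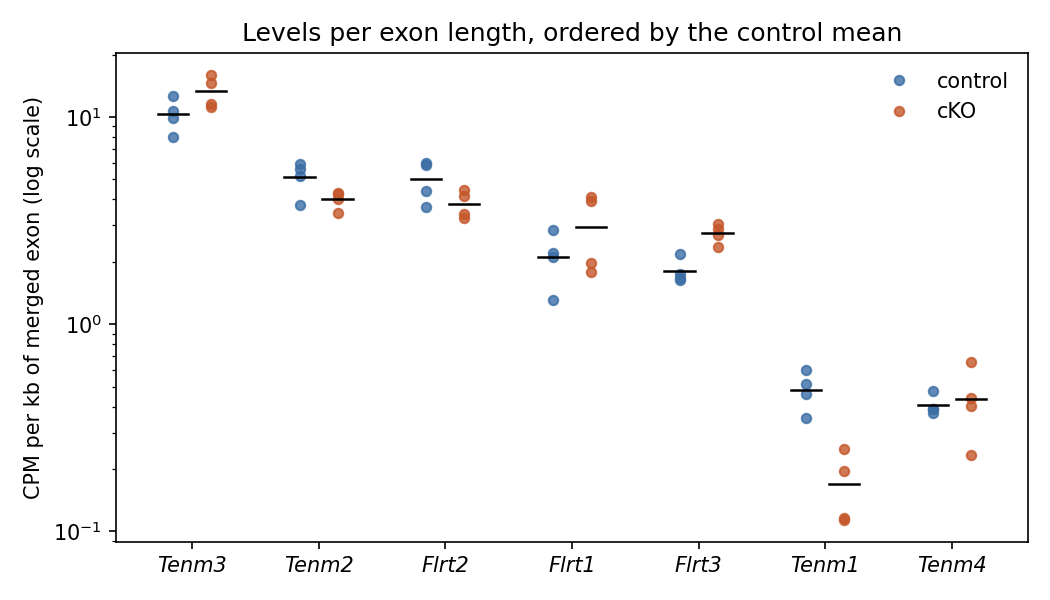
Level of each member in CPM per kb of merged exon (log axis), with a point for each control (blue) and cKO (orange) library and a black line at the mean of the 4 libraries. Tenm3 stands above the other members in both groups, and Tenm1 is the member whose points move down the most, from a mean of 0.482 in control to 0.169 in cKO.

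In cKO ganglia the order changed at its lower end. Tenm3 stood at 13.3 ± 2.34, Tenm2 at 4.0 ± 0.398 and Flrt2 at 3.82 ± 0.560 CPM per kb (SD, n = 4 each). Flrt1 followed with 2.96 ± 1.25 and Flrt3 with 2.74 ± 0.297 CPM per kb, and from Tenm2 to Flrt3 each gene overlapped with the next. Tenm4 (0.435 ± 0.176 CPM per kb) now preceded Tenm1 (0.169 ± 0.0660 CPM per kb), though the highest Tenm1 library and the lowest Tenm4 library still overlapped. Tenm1 made up 0.924% ± 0.260 of the summed teneurin level per kb (SD, n = 4), and the share of Tenm3 was 74.1% ± 2.75. The summed level itself differed little, with 16.3 ± 2.67 CPM per kb in control and 17.9 ± 2.75 CPM per kb in cKO for the 4 teneurins. For the 3 FLRT genes the sums were 8.92 ± 0.552 and 9.51 ± 0.465 CPM per kb (SD, n = 4 each). Both pairs of sums overlapped between the groups. With the longest annotated transcript as the length, Flrt3 came before Flrt1 in both groups (2.22 and 3.35 CPM per kb for Flrt3 in control and cKO).

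Tenm1, the X-linked teneurin, had the largest difference of the 7. Control libraries 1 to 4 held 134, 145, 109 and 176 reads of Tenm1, and cKO libraries 1 to 4 held 61, 34, 78 and 38. In CPM these were 8.21, 9.09, 6.24 and 10.7 in control against 3.49, 2.03, 4.43 and 2.05 in cKO, so that the highest cKO library lay below the lowest control library. The log2 fold change was -1.51 (SE 0.27), a cKO level 0.351 times that of control. With each library left out in turn it lay between -1.76 and -1.36, and it was -1.24 (SE 0.30) without control 4 and cKO 4 together. Tenm1 spans 901 kb of chromosome X (42527866 to 43429126, minus strand, GRCm38). At its downstream end it shares 1465 exon bases with Sh2d1a on the opposite strand, and Sh2d1a had 0 counts in all 8 libraries. Xist stood at 16729 counts or more in each library, and the sum over 4 genes of the Y chromosome did not exceed 1 count. Of 487 tested genes on chromosome X, 9 rose and 4 fell, a share of 2.67% that is close to the 2.72% of all genes tested.

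Tenm2 and Tenm4 gave smaller differences. Tenm2 had 59.7, 67.9, 43.1 and 64.1 CPM in the control libraries and 49.1, 39.3, 46.2 and 49 CPM in the cKO libraries, with a log2 fold change of -0.35 (SE 0.15). Only control 3 fell within the cKO range, and the other control libraries were all above it. Tenm4 had 8.21, 8.21, 7.85 and 10.0 CPM in controls and 13.9, 4.90, 9.25 and 8.52 CPM in cKO ganglia, with a log2 fold change of 0.09 (SE 0.26). The cKO libraries of Tenm4 held both the highest and the lowest value of the 8, and the sign of its difference changed when cKO 1 was left out (-0.19).

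Tenm3, the most abundant teneurin, had 129, 101, 81.8 and 109 CPM in controls and 163, 118, 150 and 114 CPM in cKO ganglia. Its log2 fold change was 0.37 (SE 0.16), opposite in sign to those of Tenm1 and Tenm2. Only control 1 reached into the cKO range. The 4 teneurins thus differed in sign, and the log2 fold changes of Tenm1 and Tenm3 were -1.51 and 0.37 in the same libraries.

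**Figure D2:**
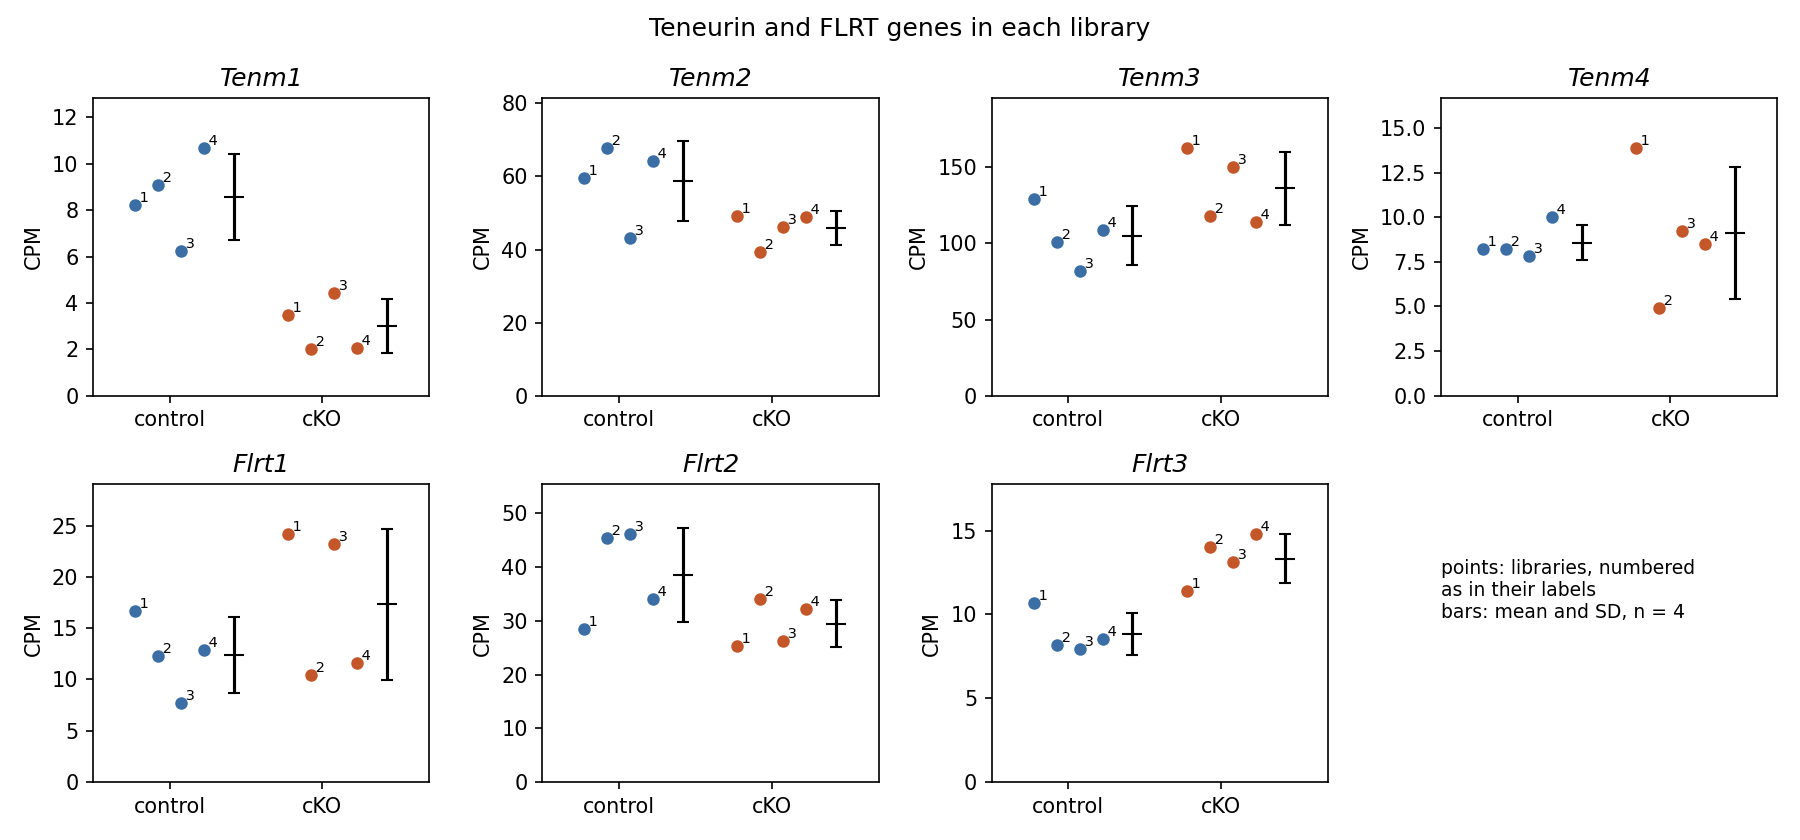
CPM of each member in each library, with points numbered as in the sample labels (blue control, orange cKO) and a bar for the mean and SD of the 4 libraries of a group, on axes that start at 0. The groups do not overlap for Tenm1 and Flrt3, whereas all other members overlap between groups.

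Among the FLRT genes, Flrt3 had the clearest separation. It had 10.7, 8.15, 7.96 and 8.51 CPM in the control libraries and 11.4, 14.0, 13.1 and 14.8 CPM in the cKO libraries, from 130 to 274 reads each. Every cKO library lay above every control library, though the gap between control 1 and cKO 1 was narrow. The log2 fold change was 0.60 (SE 0.14), between 0.54 and 0.69 with each library left out, and 0.77 (SE 0.14) without control 1 and cKO 1 together. Flrt3 lies on chromosome 2 (140650914 to 140671469, minus strand, GRCm38) inside the gene body of Macrod2, which runs on the opposite strand, and shares no exon base with it. Macrod2, a mono-ADP-ribosylhydrolase gene, had 21.8 ± 1.26 CPM in controls and 19.0 ± 2.01 CPM in cKO ganglia (SD, n = 4 each), and its log2 fold change of -0.20 (SE 0.11) missed the threshold (edgeR adjusted p = 0.430). Flrt3 and Macrod2 differed in sign, though the groups overlapped for Macrod2. The part of reads from Macrod2 in the counts of Flrt3 was not tested.

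Flrt1 and Flrt2 overlapped between groups and differed from each other in sign. Flrt1 had 16.7, 12.3, 7.67 and 12.9 CPM in controls and 24.2, 10.4, 23.2 and 11.6 CPM in cKO ganglia, a log2 fold change of 0.48 (SE 0.31). The high values in cKO came from libraries 1 and 3, while cKO 2 and cKO 4 lay within the control range. Flrt1 sits within Macrod1 on chromosome 19 (7092001 to 7105729, minus strand, GRCm38), again on the opposite strand with no shared exon base. Macrod1 had 4.51 ± 1.42 CPM in controls and 3.95 ± 0.792 CPM in cKO ganglia (SD, n = 4 each; log2 fold change -0.19, SE 0.25, edgeR adjusted p = 0.791). Flrt2, on chromosome 12 (95692226 to 95785215, plus strand), had 28.5, 45.5, 46.2 and 34.0 CPM in controls and 25.3, 34.1, 26.3 and 32.2 CPM in cKO ganglia, a log2 fold change of -0.39 (SE 0.17). Controls 2 and 3 were above every cKO library, and controls 1 and 4 were within the cKO range.

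All 7 members passed the filter on low counts and were part of the fit across all genes, in which 1 of them, Tenm1, lay past the threshold, beside 2.72% of all genes in that fit. Tenm1 no longer lay past it without control 2, control 4 or cKO 2, or without control 4 and cKO 4 together. Under 18 alternative settings of the fit, Tenm1 lay past it in 14 and Flrt3 in 6. In edgeR 5 of the 7 had an unadjusted p below 0.05, beside 2457 of all tested genes. In DESeq2 and limma voom 2 each passed, beside 1012 and 1539 of all tested genes. Groups did not overlap in 2 of 7, Tenm1 and Flrt3, against 11.0% of all tested genes. Nothing is read from these counts, since the genes were picked on this difference. The median log2 fold change of the members was 0.09, beside 0.00 over all tested genes.

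The start regions of Tenm1 and Flrt3, the pair whose values led to the choice of these genes, had different base composition. RefSeq windows of 300 bases (250 before and 50 after an annotated start, GRCm38.p6) were found for 6 of the 7 members, all except Flrt1. Capitals mark CG dinucleotides and the letters TATAAA on either strand.
Tenm1, chrX:43274735-43275034, minus strand: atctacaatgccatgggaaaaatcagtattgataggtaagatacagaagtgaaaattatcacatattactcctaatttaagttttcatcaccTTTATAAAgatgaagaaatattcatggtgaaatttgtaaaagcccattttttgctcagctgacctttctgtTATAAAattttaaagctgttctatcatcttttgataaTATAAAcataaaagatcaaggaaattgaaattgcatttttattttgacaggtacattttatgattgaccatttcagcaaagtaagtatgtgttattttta
Flrt3, chr2:140671427-140671726, minus strand: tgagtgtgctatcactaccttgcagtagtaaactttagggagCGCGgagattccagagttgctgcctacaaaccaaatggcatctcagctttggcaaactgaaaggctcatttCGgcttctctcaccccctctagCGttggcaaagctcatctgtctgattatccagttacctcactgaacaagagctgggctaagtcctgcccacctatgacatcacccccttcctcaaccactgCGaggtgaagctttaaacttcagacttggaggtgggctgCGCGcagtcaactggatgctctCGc
The Tenm1 window had 27.0% GC. It held 0 CG dinucleotides, which was so for 5.43% of the 32851 windows in the table, and it held TATAAA, found on either strand in 13.6% of windows. The Flrt3 window had 51.3% GC and 8 CG dinucleotides and no TATAAA, beside medians of 52.7% and 7 over all windows. The other windows of members had between 40.0% and 55.3% GC and between 2 and 14 CG dinucleotides, and none held TATAAA. The RefSeq starts used for Tenm1, Tenm2 and Tenm3 lie 154, 292 and 169 kb inside the gene bodies that GENCODE annotates, and that of 1 of the 2 Tenm4 windows 40.4 kb inside. Those of Flrt2, Flrt3 and the other Tenm4 window are within a few bases of the annotated gene starts. Counts per gene do not show which start was used in the ganglia.

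Variation between libraries of a group was large for several members and did not follow the genotype. In a principal component analysis of log2 CPM over all tested genes the first axis took up 37.1% of the variance, with control 1, cKO 1 and cKO 3 on its negative side and the other 5 libraries on its positive side. In these 3 libraries Flrt1 lay between 16.7 and 24.2 CPM, above the 7.67 to 12.9 CPM of the others, and Tenm3 lay between 129 and 163 CPM, above 81.8 to 118 CPM. Flrt2 went the other way, with 25.3 to 28.5 CPM against 32.2 to 46.2 CPM. Such a separation of these 3 libraries from the other 5 was found upward in 11.6% and downward in 12.3% of all tested genes, so it was common in the data. The same 3 libraries also had the highest sums of 11 muscle and cartilage markers. These were 119, 230 and 76.3 CPM in control 1, cKO 1 and cKO 3, against 51.8 to 69.9 CPM. Most of the cKO 3 sum was the collagen gene Col11a1 (54.8 CPM). In cKO 3, Acta1, Myh3, Myh8 and Tnnt3 lay within the range of the other 5 libraries, and Actc1 and Ckm slightly above it. Sums of 6 macrophage markers were also highest in the 3 libraries (163, 161 and 208 CPM, against 105 to 148 CPM). Of these markers, C1qa and C1qb separated the 3 libraries from the others, whereas Aif1, Csf1r, Cx3cr1 and Ptprc overlapped. GC-rich transcripts were raised in control 1 and cKO 1, where genes of the top decile of GC content had a median deviation of 0.206 and 0.203 on the log2 scale, but not in cKO 3 (0.00447), and were lowered in control 2 and cKO 2 (-0.208 each). The transcripts of Flrt1 and Flrt2 had 53.9% and 41.8% GC. With the GC trend of each library as an offset, an alternative chosen after seeing the data, the log2 fold changes of Flrt1, Flrt2 and Tenm3 were 0.46, -0.36 and 0.36. The part of the marker levels in the variation of these members was not tested.

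**Figure D3:**
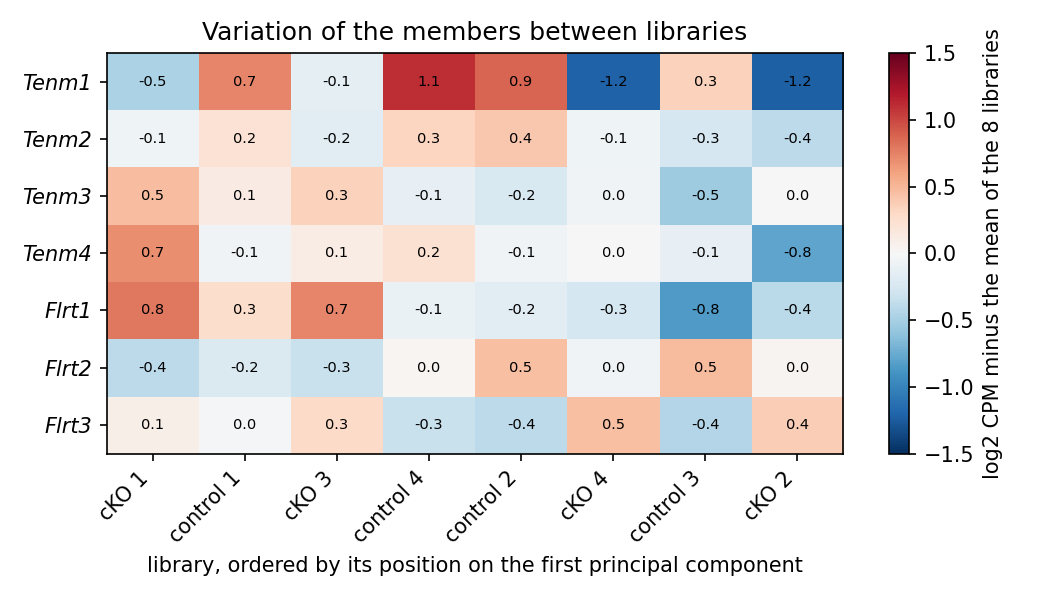
Heat map of log2 CPM of each member minus its mean over the 8 libraries (red above, blue below), with libraries ordered by their position on the first principal component. Flrt1 and Tenm3 are above their means and Flrt2 below its mean in the 3 libraries on the left, while Tenm1 is above its mean in all 4 control libraries and Flrt3 below its mean in controls 2, 3 and 4.

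Genes whose values across the 8 libraries ran closest to each member were found by the root mean square difference of centred log2 CPM, among 11732 tested genes of at least 5 CPM. This distance includes the difference between the groups. Genes near Tenm1 and Flrt3, which were picked on that difference, share it by construction. Nothing is read from the group means of those genes. Closest to Tenm1 were Scube1 and Cntn5 (0.319 each), a secreted signalling protein gene and an immunoglobulin-type neural adhesion gene, and Rgs9 (0.344), a regulator of G-protein signalling. The distance of Tenm1 to all candidates had a median of 0.873. Scube1 had 156 ± 7.17 CPM in controls and 57.9 ± 10.3 CPM in cKO ganglia (SD, n = 4 each), and Cntn5 29.3 ± 6.31 and 12.2 ± 3.48 CPM. For Flrt3 the closest named genes were Fbln2 (0.0913), a matrix protein gene, and Pecam1 (0.0922), an endothelial adhesion gene, against a median of 0.393. Pecam1 had 42.8 ± 2.91 CPM in controls and 62.4 ± 2.81 CPM in cKO ganglia (SD, n = 4 each). Closest to Tenm2 were Pcdh7 (0.0662), Ppfia2 (0.0759) and Myt1l (0.0973), a protocadherin, a presynaptic scaffold and a neuronal transcription factor gene, with a median of 0.327. Closest to Tenm3 were Dag1 (0.0412), which encodes dystroglycan, Lama2 (0.0733), a laminin chain that dystroglycan binds, and Sfxn2 (0.0737), with a median of 0.354. Dag1 also encodes a reported binding protein of teneurin-1, whose gene Tenm1 differed in the other direction (log2 fold change -1.51, against 0.35 for Dag1). Dag1 had 171, 144, 112 and 145 CPM in the control and 218, 163, 199 and 147 CPM in the cKO libraries. Like Tenm3, it was highest in control 1, cKO 1 and cKO 3, as were 11.6% of all tested genes. The nearest genes to Tenm4 were Ksr1 (0.180), Rnf152 (0.189) and Sap30l (0.191), to Flrt1 Ttc28 (0.138), Sptb (0.160) and Myh6 (0.165), and to Flrt2 Hsph1 (0.0631), Bbs5 (0.0701) and Zfp790 (0.0733). The medians for these 3 members were 0.433, 0.557 and 0.351.

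Among 16 tested genes listed as receptors, ligands and other binding partners of teneurins and FLRT proteins, 1 rose and 1 fell. This was 12.5% of the listed partners, beside 2.72% of all tested genes, and rests on 2 genes, Gpc3 and Rnd1. Gpc3 is counted here as a reported binding protein of UNC5 receptors, and is thus linked to the members through these receptors. Among the 3 latrophilins 0 passed in edgeR, 0 had an unadjusted p below 0.05 and 0 passed in DESeq2 or limma voom. Lphn1, the most abundant, had 364, 153, 194 and 216 CPM in controls and 352, 121, 231 and 231 CPM in cKO ganglia. Control 1 and cKO 1 were its highest libraries, and the groups overlapped widely (log2 fold change 0.01, SE 0.32). For Lphn2 the log2 fold change was -0.28 (SE 0.14) and for Lphn3 it was -0.09 (SE 0.16).

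Of the 4 UNC5 receptors, which bind netrins and FLRT proteins, 0 passed in edgeR and in DESeq2, 1 had an unadjusted p below 0.05 and 1, Unc5c, passed in limma voom. Unc5c had 62.5 ± 9.54 CPM in controls and 48.8 ± 6.50 CPM in cKO ganglia (SD, n = 4 each; log2 fold change -0.36, SE 0.14, edgeR adjusted p = 0.218). Unc5b had 51.4 ± 8.70 and 38.0 ± 12.3 CPM (log2 fold change -0.43, SE 0.21), and Unc5a 17.3 ± 2.28 and 16.1 ± 2.48 CPM. Unc5d was low in all libraries except cKO 4, with 0.674, 1.76, 0.802 and 3.53 CPM in controls and 1.26, 0.896, 1.76 and 9.71 CPM in cKO ganglia. The libraries highest in Unc5d, cKO 4 and control 4, also had the highest sums of 8 sensory neuron markers, 185 and 77.9 CPM against 30.5 to 48.5 CPM in the others, and the part of this in the values of Unc5d was not tested.

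Among the FGF receptors, Fgfr1 was the main one, with 98.2 ± 12.8 CPM in controls and 114 ± 21.9 CPM in cKO ganglia (SD, n = 4 each). Of 3 tested FGF receptors 0 passed in edgeR, 1 had an unadjusted p below 0.05, and 1, Fgfr3, passed in DESeq2 and in limma voom. Fgfr3 had 2.51, 2.19, 2.35 and 2.07 CPM in controls and 3.43, 3.10, 4.26 and 3.88 CPM in cKO ganglia, without overlap (log2 fold change 0.68, SE 0.18, edgeR adjusted p = 0.0674). It passed also with scaling by library size alone. Fgfr4 was too low to be tested. None of 10 tested feedback genes of FGF signalling passed in edgeR or DESeq2, 2 had an unadjusted p below 0.05, and 1 passed in limma voom. The 2 with the smallest p were the transcription factor gene Etv4, at 5.16 ± 1.21 CPM in controls and 7.38 ± 1.37 CPM in cKO, and the phosphatase gene Dusp6, at 39.8 ± 5.87 and 51.2 ± 9.61 CPM (SD, n = 4 each). The log2 fold change was 0.51 (SE 0.20) for Etv4 and 0.36 (SE 0.16) for Dusp6.

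Both listed partners that passed came from the 6 other binding proteins. Rnd1, whose protein associates with FLRT3 inside the cell, had 6.68, 6.77, 7.96 and 6.93 CPM in controls and 3.43, 4.18, 3.07 and 4.91 CPM in cKO ganglia. Its log2 fold change was -0.86 (SE 0.18, edgeR adjusted p = 0.0317), with every cKO library below every control library. Its call was lost without controls 2, 3 or 4 or without cKO 1, 2 or 3, where the adjusted p lay between 0.0627 and 0.100. Gpc3, a cell-surface proteoglycan reported to bind UNC5 receptors, had 124, 124, 168 and 142 CPM in controls and 204, 248, 213 and 228 CPM in cKO ganglia. The log2 fold change of Gpc3 was 0.68 (SE 0.12, edgeR adjusted p = 0.0191), again without overlap, and the call was lost without control 2, control 4, cKO 2 or cKO 3 (adjusted p between 0.0548 and 0.0860). Gpc3 rose in the same libraries in which fibroblast, endothelial and mural marker sums were high, and the part of these cells in its change was not tested. Robo1, a Slit receptor that FLRT3 can bind, had 11.7 ± 1.81 and 11.6 ± 2.24 CPM (SD, n = 4 each). Mbd1 and Dag1, which encode reported partners of teneurin-1, gave log2 fold changes of 0.07 and 0.35 (SE 0.11 and 0.16) and did not pass.

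**Figure D4:**
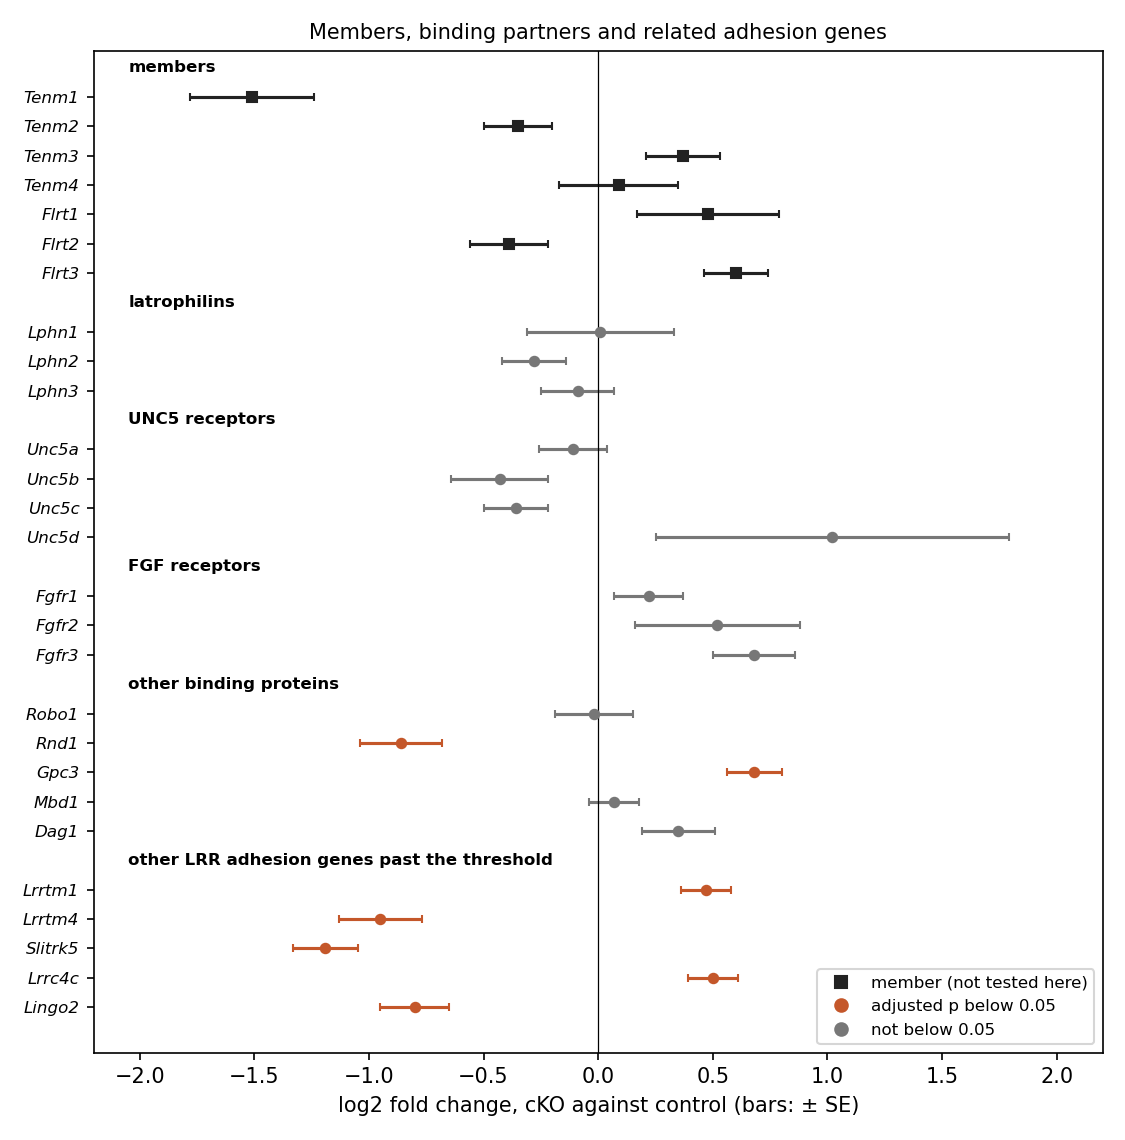
Log2 fold change of cKO against control with its SE for the 7 members (black squares, not tested), for their binding partners and for the 5 related leucine-rich repeat adhesion genes past the threshold, in orange where edgeR's adjusted p was below 0.05 and grey where it was not. Rnd1 at -0.86 and Gpc3 at 0.68, the latter listed as a binding protein of UNC5 receptors, are the listed partners past the threshold. Tenm1 at -1.51 lies farthest from 0.

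Other adhesion genes with leucine-rich repeats, related to FLRT in their extracellular domains, were taken as a comparison. Of 30 tested, 2 rose and 3 fell, a share of 16.7% beside 2.72% of all tested genes, and the median log2 fold change was -0.12. Slitrk5, a synaptic adhesion protein and modulator of TrkB, had 81.0, 72.9, 69.7 and 68.5 CPM in controls and 39.8, 25.3, 31.9 and 31.3 CPM in cKO ganglia. Its log2 fold change was -1.19 (SE 0.14, edgeR adjusted p = 0.00250) and it passed under all 18 alternatives, as no other gene of this list did. Lrrtm4, a postsynaptic organiser, had 38.5 ± 8.56 CPM in controls and 19.9 ± 2.99 CPM in cKO ganglia, and Lingo2 had 21.6 ± 3.03 and 12.4 ± 2.10 CPM (log2 fold changes of -0.95, SE 0.18, and -0.80, SE 0.15). Lrrtm1 rose from 51.0 ± 4.98 to 70.8 ± 6.09 CPM and Lrrc4c, which encodes the netrin-G ligand NGL-1, from 27.6 ± 2.62 to 39.1 ± 2.73 CPM (SD, n = 4 each), with log2 fold changes of 0.47 and 0.50, each with an SE of 0.11. The adjusted p of these 4 genes in edgeR lay between 0.0212 and 0.0433. Without control 2, control 4 or cKO 3, of these 5 only Slitrk5 passed, and without cKO 2 Slitrk5 and Lrrtm4 passed. Without control 3 Lrrtm4 and Lrrc4c were lost, without cKO 1 Lrrtm1 and Lrrc4c, and without control 1 or cKO 4 Lrrtm1 alone.

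The 4 teneurin genes are long, spanning from 616 kb for Tenm3 to 1229 kb for Tenm2. Among 192 tested genes with a gene body of 500 kb or more, 15 fell, Tenm1 among them, and 4 rose. This was 7.81% lower and 2.08% higher, beside 1.02% lower and 1.65% higher among 13391 tested genes of shorter span. Leaving out the teneurins, 14 of 188 fell. Lrrtm4 and Lingo2, which fell, and Lrrc4c, which rose, are counted both here and among the leucine-rich repeat adhesion genes above. With the teneurins left out of the ranking, the genes with the smallest p were Lrp1b, a lipoprotein receptor relative, Kcnd2, a potassium channel, Cntnap2, a neurexin-like adhesion protein, Grm7, a glutamate receptor, and Cntn5. Lrp1b went from 16.0 ± 3.79 to 3.61 ± 0.399 CPM and Cntnap2 from 85.7 ± 12.6 to 43.0 ± 7.07 CPM (SD, n = 4 each). The total of 19 long genes came down to between 3 and 6 when control 2, control 4, cKO 2 or cKO 3 was left out (3, 4, 6 and 4 genes). Many of these genes are used by neurons, whose marker sum was lower in every cKO library, and the part of that in the count was not tested. Tenm2, Tenm3 and Tenm4 had log2 fold changes of -0.35, 0.37 and 0.09 at spans of 1229, 616 and 740 kb.

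Of 77 tested genes within 1 Mb of a member, 1 rose and 0 fell in edgeR, a share of 1.30% beside 2.72% of all tested genes. Among the 77, 8 had an unadjusted p below 0.05 in edgeR, beside 2457 of all 14592 tested genes. In DESeq2 and limma voom 4 and 5 of the 77 passed, beside 1012 and 1539 of all tested genes. None of the 5 tested neighbours of Tenm1 passed in any of the 3 tools, and Xiap and Stag2, on its downstream side, differed by -0.03 and 0.06 log2 units (SE 0.13 and 0.11). The gene that rose was Ism1, 892 kb from Flrt3, which encodes a secreted protein and went from 0.498 ± 0.217 to 1.35 ± 0.262 CPM (SD, n = 4 each; log2 fold change 1.42, SE 0.31, edgeR adjusted p = 0.0418). Its call was lost in 6 of the 8 fits with 1 library left out, those without control 2, control 4 or any of the cKO libraries. Flrt2 had no tested gene within that distance.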

How the data were processed

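The authors deposited whole-number read counts per gene symbol. The submitters' processing notes name STAR and mm10, and the counting program, the annotation and any use of strand were not given in the sources used here. Libraries were made with a TruSeq v2 kit from RNA that had passed an integrity check, per the labels' protocols. Columns were matched to samples by title. The main test was edgeR's quasi-likelihood test (edgeR 4.0.16 under R 4.3.3) after filterByExpr and TMM, robust, with group as its single factor and Benjamini-Hochberg adjustment over 14592 genes. SE is the absolute log2 fold change over the square root of F. Log2 CPM used a prior count of 2. Replicates were separate animals, and chi-square per gene between libraries of a group (7.72 to 55.5) exceeded sampling noise. Lengths, positions and GC content came from GENCODE vM21 on GRCm38, which is mm10, and 13583 tested genes were matched by symbol.

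The members and lists were chosen with earlier results of these data known. Named genes were the members, all listed partners and overlapping genes, up to 6 passing genes (or the 2 with the smallest p) of each larger list, and the 3 nearest genes by pattern, leaving predicted genes unnamed. The values of 1 listed partner are not reported here, though the counts include it. Alternatives were DESeq2 size factors, library size alone, 2 other filters, DESeq2 1.42.0, limma voom (3.58.1), a block for the label number, libraries left out singly or in 2 pairs, and a GC offset chosen after seeing the data. In 1 simulation of cKO against control over 14496 genes, edgeR called 34.3% of genes with a simulated 1.5-fold change, 74.2% at 2-fold and 98.5% at 4-fold, and 5.52% of its calls were wrong. The simulation drew each gene independently, without the variation that genes of a library share in the data. These rates therefore need not hold for the real libraries. Figures were drawn with matplotlib 3.10.9.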

Additional observations from a re-analysis of the deposited data

Results flagged for a closer look

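In 31 genes, the members, their partners and the named genes of the lists, each group of 4 libraries was checked for a library far from the other 3, 62 groups in all. Such a library, by Dixon's ratio of gap to range, was found in 3 groups. Chance gives about 1 in 20. Tenm4 had 10.0 CPM in control 4, and 7.85 to 8.21 CPM in the other control libraries. Unc5b had 64.4 CPM in control 1, with 46.0 to 48.1 CPM in the other controls. Unc5d had 9.71 CPM in cKO 4, with 0.896 to 1.76 CPM in the other cKO libraries, and that library also had the highest sum of sensory neuron markers, 185 CPM.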

How the results depend on the processing

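Under the 18 alternatives only Tenm4 changed sign among the members, in 3 of them (range -0.20 to 0.30, main fit 0.09, SE 0.26). Flrt3 ranged from 0.53 to 0.77 (main fit 0.60, SE 0.14) and Tenm1 from -1.76 to -1.24 (main fit -1.51, SE 0.27). The farthest moves of Tenm4, Flrt3 and Tenm1 were thus about as large as the SE or larger. Those of Tenm2, Tenm3, Flrt1 and Flrt2 stayed below it. With 1 library left out, the ranges were -1.76 to -1.36 for Tenm1, -0.48 to -0.28 for Tenm2, 0.26 to 0.48 for Tenm3, -0.19 to 0.30 for Tenm4, 0.27 to 0.67 for Flrt1, -0.52 to -0.30 for Flrt2 and 0.54 to 0.69 for Flrt3. Counts of calls moved more. All tested genes gave 397 calls, 1012 in DESeq2, 1539 in limma voom, 74 to 514 with 1 library left out (79, 249, 74, 147 and 137 without control 2, control 3, control 4, cKO 2 and cKO 3), and 65 without control 4 and cKO 4. The 7 calls in the partner and comparison lists became 12 in limma voom, 1 to 6 with 1 library left out, 3 without control 1 and cKO 1, and 1 without control 4 and cKO 4. The 1 call near the members became 2 with library size alone, 4 in DESeq2, 5 in limma voom, 0 to 1 with 1 library left out, and 0 without control 4 and cKO 4. The 19 long genes became 39 in DESeq2, 45 in limma voom, 3 to 18 with 1 library left out, 12 without control 1 and cKO 1, and 6 without control 4 and cKO 4. Fewer libraries leave fewer degrees of freedom, and otherwise the cause was not tested. With a replicate block for the number in the labels there were 687 calls over all genes and 29 among long genes. The numbers were not taken as pairs, since deviations of same-numbered libraries correlated at 0.725, 0.352, -0.302 and 0.265. Controls 1, 2 and 4 and cKO 1 matched their own number best, and the other libraries did not. Top-decile GC deviations were 0.206 and 0.203 in control 1 and cKO 1, and -0.208 each in control 2 and cKO 2. They were -0.00579 and 0.00447 in control 3 and cKO 3, and -0.00794 and 0.0808 in control 4 and cKO 4. The origin of this likeness by number was not tested. With the longest transcript as the length, levels in control and cKO were 0.651 and 0.694 CPM per kb for Tenm4 and 2.22 and 3.35 for Flrt3, with 0.665 for Tenm1 in control and 4.63 for Tenm2 in cKO. As few as 34 reads of Tenm1 in a library limit its precision.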
